A study of Mus musculus with 18 samples.

Results

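Members of the interleukin-1 (IL-1) family and of the inflammasome, the protein complex that switches on inflammatory caspases, were followed in mouse macrophages. The members were Il1a, Il1b, Il1rn, Il18, Il18bp, Nlrp3, Casp1, Casp4, Pycard and Gsdmd. They were chosen by gene name, each name matched 1 gene, and together they are 10 of the 56748 genes counted. RNA sequencing had been carried out on RAW264.7 cells, a mouse macrophage line, to ask how tert-butylhydroquinone (TBHQ), a phenolic antioxidant used in processed foods, alters their response to microbial stimuli. The 18 libraries fall into 6 conditions with 3 biological replicates each. Nothing beyond that description says how the replicates were separated, so p-values measure the spread between these samples.

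Control cells were left untreated. TBHQ cells received 5 µM TBHQ and were collected after 4 h. LPS cells were exposed to lipopolysaccharide (LPS, 0.1 µg/mL, 12 h), a component of the outer membrane of bacteria. PIC cells were exposed to polyinosinic-polycytidylic acid (PIC, 20 µg/mL, 12 h), a synthetic double-stranded RNA that stands in for viral RNA. LPS+TBHQ and PIC+TBHQ cells were given the same dose of TBHQ 4 h before the stimulus, which again lasted 12 h. The methods do not state the hour at which control cells were collected; a figure legend can be read as placing them in medium for 12 h, like the stimulated cells. TBHQ cells were collected earlier, so in TBHQ against control the treatment and the time in culture may not be separable. TBHQ was dissolved in dimethyl sulfoxide, and no solvent is mentioned for the sequenced cells without TBHQ. The libraries held between 14423390 and 18851626 counts.

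IL-1α and IL-1β are cytokines that signal through a shared receptor, and the product of Il1rn occupies that receptor without signalling. The precursors of IL-1β and IL-18 are cleaved by caspase-1, which is switched on when a sensor such as NLRP3 assembles with the adaptor ASC, and caspase-1 and the LPS-binding caspase-11 also cleave gasdermin D into a form that opens pores in the cell membrane. In macrophages a microbial stimulus first raises the transcripts of the cytokines and the sensor, and a further signal then triggers assembly. RAW264.7 cells are known for lacking ASC.

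The cell label was checked against marker genes. All 9 of 9 macrophage markers were expressed above the filter of the test, and their summed level lay between 4400 and 5690 FPKM (fragments scaled to transcript length and library size) in the 18 libraries. Lyz2, the lysozyme of myeloid cells, was the most abundant of them, with a mean of 3460 FPKM in PIC and of 4530 FPKM in control, so that the sum mostly follows it, while the mannose receptor Mrc1 reached no more than 0.343 FPKM. Single markers moved with the treatments, and not all in the same direction. From control to PIC the mean went from 18.4 to 67.6 FPKM for Adgre1 and from 10.6 to 25.5 FPKM for Itgam. Csf1r was lower, at 153.7 FPKM in control, 91.7 FPKM in LPS and 86.1 FPKM in PIC. With TBHQ the mean of Fcgr1 went from 14.0 to 5.77 FPKM in unstimulated cells, from 13.9 to 5.39 FPKM in LPS and from 9.64 to 4.53 FPKM in PIC. That of Csf1r was higher with TBHQ, at 173.9 FPKM in unstimulated cells, 120.4 FPKM in LPS and 117.1 FPKM in PIC. The T cell genes Cd3e and Cd8a, the neutrophil genes Ly6g and S100a9, the fibroblast gene Col1a2 and the epithelial genes Krt8 and Cdh1 had 0 counts in every library. S100a8 was the most abundant of the 5 neutrophil markers, and its mean was 0.777 FPKM in control, 0.454 FPKM in TBHQ, 3.26 FPKM in LPS, 3.46 FPKM in LPS+TBHQ, 5.59 FPKM in PIC and 3.79 FPKM in PIC+TBHQ. S100a8 was called higher than control in every stimulated condition, with edgeR adjusted p-values from 2.28e-09 in PIC to 7.45e-06 in LPS. The dendritic cell gene Zbtb46 had means of 0.102 FPKM in control and 0.185 FPKM in PIC and was called higher there (edgeR adjusted p = 0.0337). The part of these genes in the results was not tested, nor were markers put through the alternatives. Of the remaining markers, Cd79a was highest at 0.338 FPKM. Since these are bulk samples, fewer cells of a type and less RNA per cell cannot be told apart.

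A member was taken to be at the detection floor in a condition when each of its 3 libraries held 3 counts or fewer, which is 0.159 to 0.208 CPM (counts scaled to library size). Il1a was at the floor in control, with 1, 1 and 3 counts, and in TBHQ, with 1, 0 and 0 counts. Il1b was at the floor in control, with 1, 2 and 1 counts. In TBHQ it had 0, 2 and 13 counts, so that replicate 3 alone lay above the floor. Pycard was above the floor in all 6 conditions by this rule, but it had 97 counts in all 18 libraries together and 3 counts or fewer in 5 of them. The other 7 members were above the floor in every library.

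Per unit of transcript length, Il1rn was the most abundant member in every condition. Its mean FPKM ranked 889th of the 56748 genes in control, 92nd in LPS and 56th in PIC. In control, Gsdmd followed with 37.0 ± 2.29 FPKM (SD, n = 3), then Nlrp3 with 21.5 ± 1.66 FPKM and Casp1 with 20.4 ± 1.198 FPKM. In PIC, Nlrp3 with 157 ± 2.92 FPKM and Il1b with 128 ± 17.0 FPKM stood next after Il1rn, and their libraries did not overlap. The plot of FPKM by condition shows each library of each member.

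**Figure D1:**
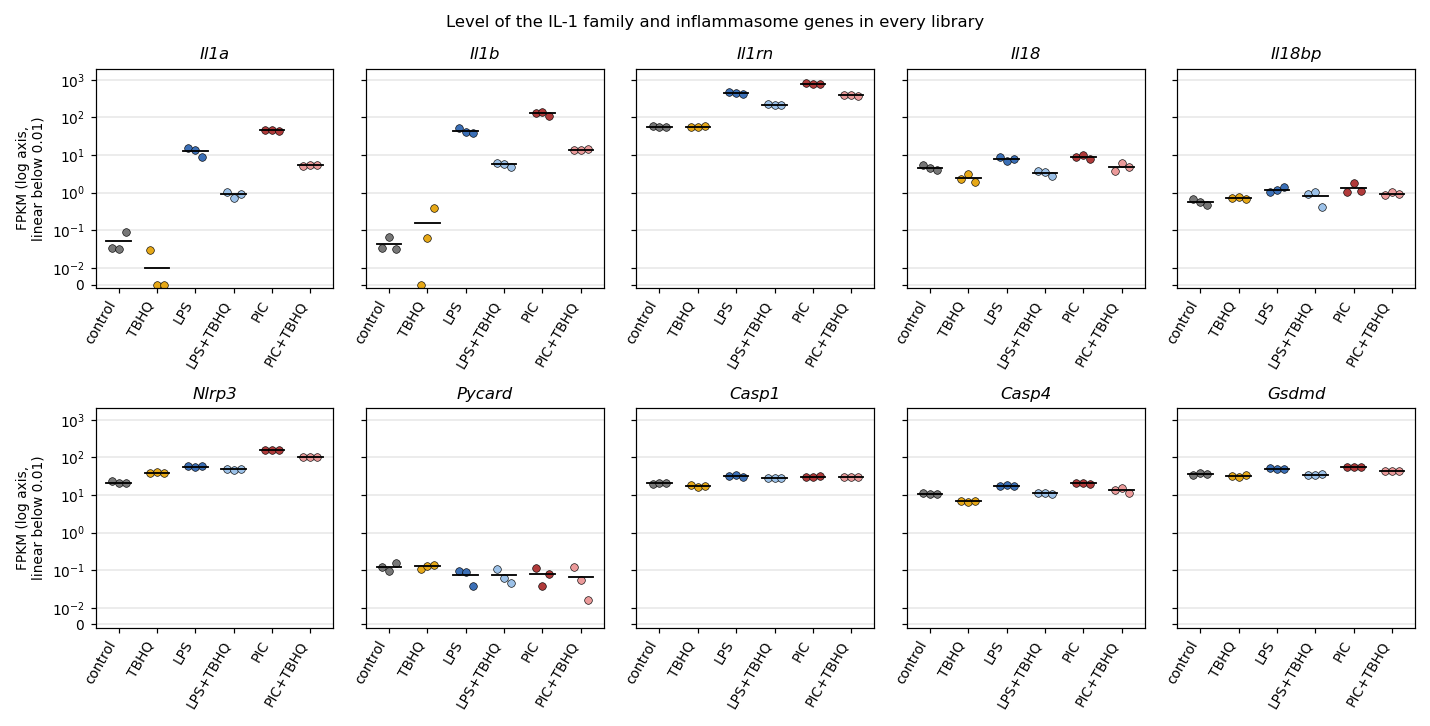
FPKM of the 10 members in each of the 18 libraries (points) by condition, with a black line at the mean of the 3 libraries, on a log axis that is linear below 0.01. Il1a and Il1b stood near the floor in control and reached means of 45.2 and 128 FPKM in PIC, whereas Pycard reached at most 0.156 FPKM in any library.

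To find differences between conditions, 13691 genes were compared by quasi-likelihood tests in edgeR; these had passed a filter on low counts, and were called at a Benjamini-Hochberg adjusted p below 0.05. Of the members, 9 passed the filter and Pycard did not. Il1a and Il1b passed it through the stimulated conditions in which they are high. In LPS against control 9 of the 9 tested members were called higher, against 24.0% of all genes, and 0 lower, against 24.1%. In PIC against control 9 were likewise called higher, against 28.6%, and 0 lower, against 30.1%. The calls of Il1a and Il1b follow largely from the filter, and the other 7 members were all called higher too. The median log2 fold change of the 9 members was 1.08 in LPS and 1.18 in PIC, and that of all genes was -0.00396 and -0.0146. Without Il1a and Il1b, which could pass the filter only by being high in stimulated cells, the median of the other 7 was 0.768 in LPS and 0.915 in PIC. With a stricter threshold, an adjusted p below 0.01 and an absolute log2 fold change above 2, Il1a, Il1b and Il1rn were called higher in LPS, against 1.34% of all genes, and the same 3 and Nlrp3 in PIC, against 2.70%. The comparisons with control share its 3 libraries.

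TBHQ before the stimulus went with lower levels of most members. In LPS+TBHQ against LPS 8 of 9 members were called lower, against 12.2% of all genes, and 0 higher, against 11.7%. In PIC+TBHQ against PIC 7 of 9 were called lower, against 15.5%, and 0 higher, against 15.8%. The median log2 fold change of the 9 members was -0.70 in the LPS pair and -0.63 in the PIC pair, and that of all genes was 0.0023 and 0.00891. Against control, LPS+TBHQ cells had 5 members called higher, against 21.2% of all genes, and 1 lower, against 22.5%. PIC+TBHQ cells had 8 called higher, against 26.4%, and 0 lower, against 26.0%. Il1a and Il1b are in both counts of higher members, and their calls follow largely from the filter. The others were Il1rn, Nlrp3 and Casp1 in LPS+TBHQ, and these with Il18bp, Casp4 and Gsdmd in PIC+TBHQ. In TBHQ alone against control 1 member was called higher, against 14.2%, and 4 lower, against 14.8%. The median of the members was 0.48 in LPS+TBHQ against control, 0.72 in PIC+TBHQ against control and -0.23 in TBHQ against control, with medians of all genes of -0.00753, -0.0012 and -0.000122. Without Il1a and Il1b the median of the members was 0.451 in LPS+TBHQ and 0.544 in PIC+TBHQ against control.

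The stimuli were also compared with each other. In PIC against LPS 6 members were called higher, against 14.9% of all genes, and 0 lower, against 12.8%, with a median of 0.18 for the members and of -0.00866 for all genes. The change with TBHQ itself was compared between PIC and LPS by an interaction term. There 1 member was called lower, against 1.01%, and 0 higher, against 0.833%, with medians of 0.127 and 0.00906. For each count of 0 by edgeR, DESeq2 and limma also gave 0, except that DESeq2 called 1 member higher in this interaction. At an unadjusted p under 0.05 edgeR also had 0 in all of these but the interaction, where it had 2 members higher. Scaled to total counts in place of edgeR's TMM factors, the median of all genes moved to -0.232 in PIC against control, -0.149 in PIC+TBHQ against control and -0.138 in PIC against LPS. On that scale 986 of all genes were higher and 4373 lower in PIC against LPS, in place of 2035 and 1752, Casp4 and Gsdmd lost their calls and Casp1 was called lower. Log2 fold changes are given on the TMM scale, on which these medians lie near 0.

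**Figure D2:**
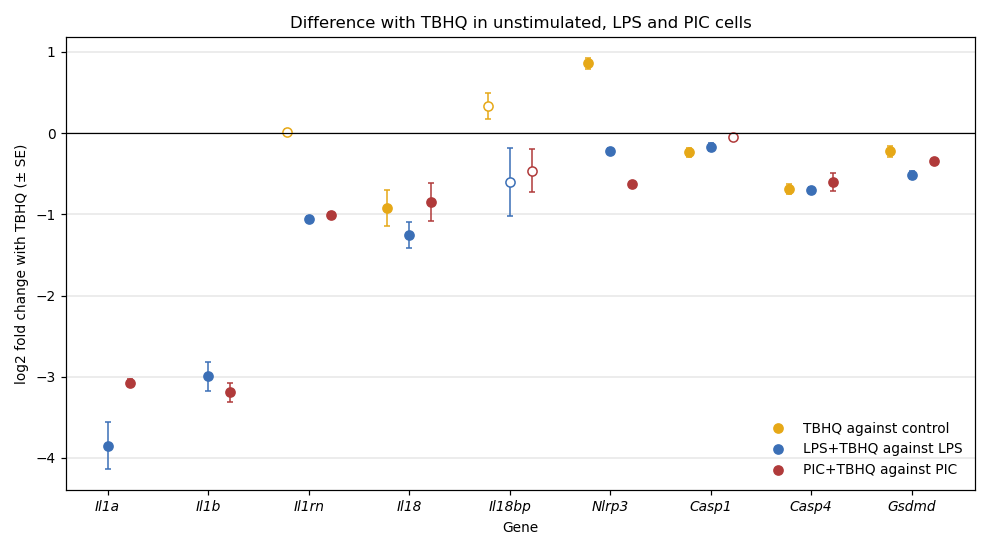
Log2 fold change with TBHQ of the 9 tested members in unstimulated cells, in LPS and in PIC, with bars of 1 standard error; filled points have an edgeR adjusted p below 0.05 and open points do not. Il1a and Il1b, left out in unstimulated cells because control is at the floor, had the lowest values, from -3.00 to -3.85, and Nlrp3 was higher with TBHQ alone (0.86) and lower with it in LPS (-0.22) and PIC (-0.63).

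Among the ligands, Il1b encodes the precursor of IL-1β, the main secreted product of the inflammasome. Its level was 53.3, 41.8 and 39.6 FPKM in the LPS libraries and 134, 142 and 109 FPKM in the PIC libraries. With TBHQ first, it was 6.27, 5.90 and 4.75 FPKM in LPS and 14.0, 13.7 and 14.1 FPKM in PIC. Each of these 4 conditions was apart from the next, in the order PIC, LPS, PIC+TBHQ and LPS+TBHQ, and all of their libraries stood above control and TBHQ. With library sizes scaled by TMM factors, as for all count ratios here, the ratio of Il1b to control was 1030 in LPS, with a 95% counting interval of 403 to 3790, and 2910 in PIC, with an interval of 1130 to 10700. After TBHQ it was 129 (50.2 to 477) in LPS and 321 (125 to 1180) in PIC. These intervals cover counting error only, and their width comes from the 4 counts in control. Il1b fell with TBHQ, with a log2 fold change of -3.00 ± 0.177 (SE) in LPS, with an edgeR adjusted p of 8.05e-21, and of -3.19 ± 0.116 in PIC, with an edgeR adjusted p of 4.37e-23. These changes ranked 17th and 5th from the lowest of the 13691 genes. The interaction was -0.20 ± 0.21 with an edgeR adjusted p of 0.657. In TBHQ alone the ratio to control was 3.6 (1.15 to 14.9), which rests on the 13 counts of replicate 3, and the edgeR adjusted p was 0.251; without that library the log2 fold change was -0.42.

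Il1a encodes IL-1α, which is active without cleavage by caspase-1. It stood at 15.9, 13.8 and 9.10 FPKM in LPS and at 46.4, 46.0 and 43.3 FPKM in PIC. With TBHQ first, the levels were 1.06, 0.701 and 0.924 FPKM in LPS and 5.15, 5.42 and 5.43 FPKM in PIC. The order of the conditions was that of Il1b and no libraries of neighbouring stimulated conditions overlapped. The ratio to control was 247 (105 to 761) in LPS and 854 (366 to 2630) in PIC, and after TBHQ 17.1 (7.05 to 53.8) and 102 (43.3 to 315). For TBHQ alone, where both conditions are at the floor, it was 0.192 (0.00406 to 1.72). Il1a fell by 3.85 ± 0.290 on the log2 scale in LPS with TBHQ, with an edgeR adjusted p of 2.13e-19, and by 3.07 ± 0.0414 in PIC, with an edgeR adjusted p of 3.65e-21. These ranked 3rd and 8th from the lowest of 13691 genes. The interaction of 0.78 ± 0.29 had an edgeR adjusted p of 0.0867. It was past the threshold in DESeq2 (adjusted p = 0.0462), without the filter on low counts (adjusted p = 0.00726) and without LPS replicate 3, the lowest LPS library (adjusted p = 0.00129), and it was -0.02 with limma on log2(FPKM + 1). Over all alternatives that gave one, its adjusted p lay between 0.00129 and 0.986.

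PIC gave more of both ligands than LPS. The log2 fold change of PIC against LPS was 1.51 ± 0.174 for Il1b, with an edgeR adjusted p of 4.43e-16, and 1.79 ± 0.243 for Il1a, with an edgeR adjusted p of 3.72e-16. Within libraries, the FPKM ratio of Il1b to Il1a had a mean of 3.57 in LPS, 6.49 in LPS+TBHQ, 2.83 in PIC and 2.61 in PIC+TBHQ. The ratios of LPS and LPS+TBHQ did not overlap, whereas those of PIC and PIC+TBHQ did.

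The receptor antagonist Il1rn was already at 58.5, 56.3 and 55.0 FPKM in control. With TBHQ alone it was 56.1, 55.9 and 59.2 FPKM, and these libraries overlapped with control. It stood at 463, 455 and 432 FPKM in LPS and at 820, 797 and 763 FPKM in PIC. After TBHQ it was 222, 211 and 217 FPKM in LPS and 398, 392 and 384 FPKM in PIC. All stimulated libraries were above all unstimulated ones, and the libraries with TBHQ were below those with the same stimulus alone. Il1rn rose by 2.98 ± 0.0401 on the log2 scale in LPS, with an edgeR adjusted p of 2.14e-37, and by 3.79 ± 0.0413 in PIC, with an edgeR adjusted p of 2.69e-40. With TBHQ it fell by 1.05 ± 0.0362 in LPS, with an edgeR adjusted p of 7.56e-24, and by 1.01 ± 0.0345 in PIC, with an edgeR adjusted p of 4.74e-23. The interaction was 0.04 ± 0.05, with an edgeR adjusted p of 0.741. PIC stood above LPS by 0.81 ± 0.0432 (edgeR adjusted p = 1.14e-20), and LPS+TBHQ and PIC+TBHQ above control by 1.93 ± 0.0339 (edgeR adjusted p = 5.96e-32) and 2.78 ± 0.0306 (edgeR adjusted p = 8.87e-37). In TBHQ against control the log2 fold change of 0.01 ± 0.04 had an edgeR adjusted p of 0.861, and its sign turned when control replicate 3 or TBHQ replicate 3 was left out, at -0.011 and -0.016.

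The fold changes of the antagonist with TBHQ were smaller than those of both ligands, a contrast between genes that was not tested. The ratio of Il1rn to Il1b FPKM was 8.68, 10.9 and 10.9 in LPS and 35.4, 35.8 and 45.8 in LPS+TBHQ. In PIC it was 6.14, 5.61 and 6.98, and in PIC+TBHQ 28.4, 28.5 and 27.3. Every library with TBHQ had a higher ratio than every library with a stimulus alone. The ratio of Il1rn to Il1a ran from 29.0 to 47.4 in LPS, from 210 to 302 in LPS+TBHQ, from 17.3 to 17.7 in PIC and from 70.7 to 77.3 in PIC+TBHQ, again with no overlap. With 3 libraries against 3 an exact two-sided permutation test cannot give a p below 0.1, so these ratios are given as a description.

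**Figure D3:**
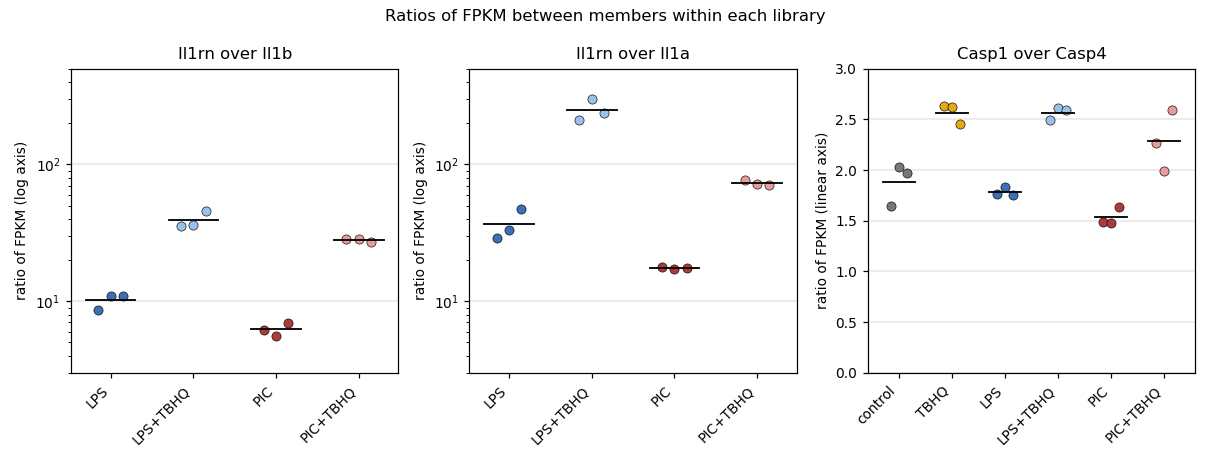
FPKM ratios within each library (points) of Il1rn to Il1b and of Il1rn to Il1a in the 4 stimulated conditions, on log axes, and of Casp1 to Casp4 in all 6 conditions, on a linear axis. Each ratio was higher in the libraries with TBHQ than in those with the same stimulus alone; for Il1rn to Il1b they ran from 27.3 to 45.8 with TBHQ and from 5.61 to 10.9 without it.

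Il18 encodes the precursor of IL-18, the other cytokine that caspase-1 cleaves. It was at 5.31, 4.64 and 3.96 FPKM in control and at 2.33, 3.08 and 1.93 FPKM in TBHQ. LPS gave 9.01, 6.82 and 7.94 FPKM, and LPS+TBHQ gave 3.71, 3.44 and 2.82 FPKM. PIC gave 8.67, 10.2 and 7.73 FPKM, and PIC+TBHQ gave 3.66, 6.01 and 4.96 FPKM. Unlike Il1b, Il18 was present before stimulation, its libraries overlapped between LPS and PIC, and each set with TBHQ lay below its counterpart without. The log2 fold change was 0.77 ± 0.16 in LPS against control, with an edgeR adjusted p of 0.000399, and 0.92 ± 0.17 in PIC against control, with an edgeR adjusted p of 2.22e-05. Il18 fell with TBHQ by 0.92 ± 0.22 in unstimulated cells (edgeR adjusted p = 0.00065), by 1.25 ± 0.16 in LPS (edgeR adjusted p = 1.61e-06) and by 0.85 ± 0.23 in PIC (edgeR adjusted p = 0.000197). LPS+TBHQ cells were below control by a log2 fold change of -0.49 ± 0.16, with an edgeR adjusted p of 0.0403. That call was lost in DESeq2 (adjusted p = 0.0758), in limma on both FPKM scales (0.0821 and 0.0776) and when control replicate 1 or 2 or LPS+TBHQ replicate 2 or 3 was left out (0.0635 to 0.167). PIC+TBHQ cells overlapped with control, at a log2 fold change of 0.07 ± 0.23 with an edgeR adjusted p of 0.795. PIC against LPS was 0.15 ± 0.16 (edgeR adjusted p = 0.557) and the interaction 0.40 ± 0.28 (edgeR adjusted p = 0.507).

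Il18bp encodes a secreted protein that binds IL-18 and holds it from its receptor. Its counts were low, from 22 to 76 per library, and its mean level was 0.569 ± 0.111 FPKM in control, 1.21 ± 0.194 in LPS and 1.31 ± 0.436 in PIC. All LPS and PIC libraries lay above control. It rose by 1.08 ± 0.20 on the log2 scale in LPS, with an edgeR adjusted p of 0.00121, and by 1.18 ± 0.29 in PIC, with an edgeR adjusted p of 0.000308. With TBHQ the libraries overlapped with those of the stimulus alone, at log2 fold changes of -0.61 ± 0.42 in LPS, with an edgeR adjusted p of 0.0868, and -0.46 ± 0.27 in PIC, with an edgeR adjusted p of 0.173. With 1 library left out the first ran from -0.88, without LPS+TBHQ replicate 2 (adjusted p = 0.0277), to -0.29, without LPS+TBHQ replicate 3 (0.485), and the second from -0.62 to -0.18. PIC+TBHQ against control was 0.72 ± 0.17, with an edgeR adjusted p of 0.0323 that became 0.0538 to 0.125 when control replicate 2 or 3 or PIC+TBHQ replicate 2 or 3 was left out and 0.06 to 0.0941 in DESeq2, in limma and with total counts. LPS+TBHQ against control was 0.48 ± 0.42, with an edgeR adjusted p of 0.181, which was 0.0173 without LPS+TBHQ replicate 3, the library with 22 counts. TBHQ against control was 0.33 ± 0.16 (edgeR adjusted p = 0.439), PIC against LPS 0.093 ± 0.28 (0.825) and the interaction 0.15 ± 0.49 (0.91). Il18bp overlaps the gene Numa1 on the other strand, which had 52447 counts over all libraries, and the strand setting of the counting is not given in the sources used here, so reads from the pair may not have been told apart.

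Nlrp3, the sensor, moved differently from the cytokines. It was at 23.4, 20.5 and 20.5 FPKM in control and at 37.5, 39.7 and 39.6 FPKM with TBHQ alone. LPS gave 57.5, 54.8 and 58.0 FPKM and LPS+TBHQ 49.9, 47.4 and 49.1 FPKM. PIC gave 157, 160 and 154 FPKM and PIC+TBHQ 99.9, 103 and 99.4 FPKM. All 6 conditions were apart, in the order PIC, PIC+TBHQ, LPS, LPS+TBHQ, TBHQ and control. Nlrp3 was the 1 member called higher with TBHQ alone, by a log2 fold change of 0.86 ± 0.0686 and an edgeR adjusted p of 1.15e-17. It rose by 1.40 ± 0.0678 in LPS (edgeR adjusted p = 6.10e-25) and by 2.86 ± 0.0657 in PIC (edgeR adjusted p = 9.25e-35), and PIC stood above LPS by 1.46 ± 0.0286 (edgeR adjusted p = 1.22e-25). In stimulated cells it fell with TBHQ, by 0.22 ± 0.0318 in LPS, with an edgeR adjusted p of 6.96e-05, and by 0.63 ± 0.0227 in PIC, with an edgeR adjusted p of 1.76e-15. Its change with TBHQ also differed between the stimuli, the 1 such call among the members by the edgeR fit of all libraries, with an interaction of -0.41 ± 0.0391 and an edgeR adjusted p of 1.22e-05. LPS+TBHQ cells were above control by 1.18 ± 0.0672 (edgeR adjusted p = 1.57e-22) and PIC+TBHQ cells by 2.23 ± 0.0655 (edgeR adjusted p = 2.13e-31), which is 4.68-fold.

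Pycard encodes ASC, the adaptor between sensor and caspase. It had 7, 6 and 10 counts in control, 7, 8 and 9 in TBHQ, and 5, 5 and 2 in LPS. The counts were 7, 4 and 3 in LPS+TBHQ, 6, 2 and 5 in PIC, and 7, 3 and 1 in PIC+TBHQ. On the length scale this is 0.124 ± 0.0296 FPKM in control, and the FPKM of Nlrp3 exceeded that of Pycard by 132 to 211 times in the control libraries. The 3 LPS libraries lay below all control libraries, and those of the other stimulated conditions overlapped with control. The ratio to control was 0.588 (0.266 to 1.23) in LPS, 0.577 (0.275 to 1.17) in LPS+TBHQ, 0.61 (0.284 to 1.25) in PIC, 0.507 (0.223 to 1.08) in PIC+TBHQ and 1.0 (0.542 to 1.86) in TBHQ. All 4 stimulated ratios were below 1 and each of their intervals includes 1; they share the control libraries and were not tested together. With TBHQ against the stimulus alone the ratio was 0.982 (0.421 to 2.32) in LPS and 0.832 (0.337 to 2.01) in PIC. The gene overlaps Gm45205 on the other strand, which had 44 counts, and the reads of the pair may not have been told apart either.

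Casp1 encodes caspase-1, which cleaves the IL-1β and IL-18 precursors. Its levels lay in a narrow band, at 19.0, 21.1 and 21.0 FPKM in control, 31.3, 33.4 and 30.0 FPKM in LPS and 30.3, 30.2 and 32.5 FPKM in PIC. With TBHQ they were 17.98, 16.8 and 17.2 FPKM in unstimulated cells, 27.7, 28.6 and 27.7 FPKM in LPS and 29.9, 29.9 and 29.6 FPKM in PIC. LPS and PIC libraries overlapped with each other and were both above control. Casp1 rose by 0.62 ± 0.0676 on the log2 scale in LPS, with an edgeR adjusted p of 3.82e-13, and by 0.59 ± 0.0594 in PIC, with an edgeR adjusted p of 8.65e-13. It fell with TBHQ alone by 0.24 ± 0.0577 (edgeR adjusted p = 0.000483) and in LPS with TBHQ by 0.17 ± 0.0487 (edgeR adjusted p = 0.00633). The latter was lost without LPS replicate 2, the highest LPS library, at an adjusted p of 0.0762. In PIC with TBHQ the log2 fold change was -0.05 ± 0.03, with an edgeR adjusted p of 0.501, and 0.02 when libraries were scaled to total counts. PIC against LPS was -0.03 ± 0.0572 for Casp1, with an edgeR adjusted p of 0.664, but -0.16 with an adjusted p of 0.00832 when scaled to total counts. LPS+TBHQ and PIC+TBHQ were above control by 0.45 ± 0.0513 (edgeR adjusted p = 1.44e-09) and 0.54 ± 0.0493 (edgeR adjusted p = 1.02e-11), and the interaction was 0.13 ± 0.0591 (edgeR adjusted p = 0.402).

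Casp4 encodes caspase-11, the mouse caspase that binds LPS in the cytosol. Its levels were 11.5, 10.4 and 10.7 FPKM in control and 6.85, 6.40 and 7.01 FPKM in TBHQ. LPS gave 17.8, 18.2 and 17.1 FPKM and LPS+TBHQ 11.2, 10.95 and 10.7 FPKM. PIC gave 20.4, 20.4 and 19.8 FPKM and PIC+TBHQ 13.2, 15.1 and 11.5 FPKM. The TBHQ libraries were the lowest of all, and those of LPS+TBHQ and of PIC+TBHQ overlapped with control. Casp4 rose by 0.70 ± 0.0525 on the log2 scale in LPS, with an edgeR adjusted p of 2.60e-11, and by 0.88 ± 0.0469 in PIC, with an edgeR adjusted p of 2.68e-14. It fell with TBHQ by 0.69 ± 0.0586 in unstimulated cells (edgeR adjusted p = 1.88e-09), by 0.70 ± 0.0319 in LPS (edgeR adjusted p = 1.07e-10) and by 0.60 ± 0.113 in PIC (edgeR adjusted p = 1.60e-09). In LPS+TBHQ against control the log2 fold change was 0.0037 ± 0.0472, with an edgeR adjusted p of 0.973, and -0.06 when scaled to total counts. PIC+TBHQ was above control by 0.28 ± 0.12, with an edgeR adjusted p of 0.000617, which was 0.0995 when scaled to total counts. PIC against LPS, at 0.18 ± 0.0315 with an edgeR adjusted p of 0.0268, was lost when LPS replicate 1 or 3 or PIC replicate 1 or 2 was left out, at adjusted p-values of 0.0613 to 0.1, with limma on both FPKM scales, at 0.0722 and 0.0801, and with total counts, at 0.556. The interaction was 0.094 ± 0.12 (edgeR adjusted p = 0.711).

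The caspase genes are neighbours on chromosome 9, with 1537 bases between them, and their FPKM ratio is given as a description, since the contrast between the genes was not tested. The ratio of Casp1 to Casp4 was 1.65, 2.03 and 1.97 in control and 2.63, 2.62 and 2.45 in TBHQ. It was 1.76, 1.83 and 1.75 in LPS and 2.49, 2.61 and 2.59 in LPS+TBHQ. In PIC it was 1.49, 1.48 and 1.64, and in PIC+TBHQ 2.27, 1.99 and 2.59. Each set of libraries with TBHQ lay above its counterpart without it.

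Gsdmd encodes gasdermin D, the pore-forming protein that caspase-1 and caspase-11 cleave. It was at 35.0, 39.5 and 36.5 FPKM in control and at 31.2, 30.3 and 33.6 FPKM in TBHQ. LPS gave 51.1, 49.5 and 49.1 FPKM and LPS+TBHQ 33.2, 34.7 and 36.7 FPKM. PIC gave 55.7, 56.9 and 54.8 FPKM and PIC+TBHQ 43.1, 43.3 and 44.0 FPKM. PIC was the highest condition, and control overlapped with LPS+TBHQ but not with PIC+TBHQ. Gsdmd rose by 0.42 ± 0.0536 on the log2 scale in LPS, with an edgeR adjusted p of 2.01e-09, and by 0.57 ± 0.0537 in PIC, with an edgeR adjusted p of 5.17e-13. With TBHQ it fell by 0.23 ± 0.0667 in unstimulated cells (edgeR adjusted p = 0.000444), by 0.52 ± 0.0462 in LPS (edgeR adjusted p = 6.94e-11) and by 0.35 ± 0.0198 in PIC (edgeR adjusted p = 2.25e-07). LPS+TBHQ against control was -0.10 ± 0.0668, with an edgeR adjusted p of 0.106, which was 0.00609 when scaled to total counts and 0.0393 and 0.0385 without control replicate 1 and without LPS+TBHQ replicate 3. PIC+TBHQ against control, at 0.23 ± 0.052 with an edgeR adjusted p of 0.000131, and PIC against LPS, at 0.15 ± 0.0236 with an edgeR adjusted p of 0.0121, were lost when scaled to total counts, at 0.168 and 0.738. The interaction was 0.17 ± 0.0503 (edgeR adjusted p = 0.206).

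Of 63 further genes of the pathway in 6 lists, 44 were tested. In LPS against control 18 were called higher and 11 lower, beside 24.0% and 24.1% of all genes, with a median log2 fold change of 0.03. In PIC against control 21 were higher and 13 lower, beside 28.6% and 30.1%, with a median of 0.22, and 20 were lower when scaled to total counts. With TBHQ, 5 were higher and 10 lower in LPS, beside 11.7% and 12.2%, and 7 higher and 16 lower in PIC, beside 15.8% and 15.5%, at medians of 0.0077 and -0.09. The 5 became 3 without LPS replicate 3 and the 7 became 4 without PIC+TBHQ replicate 1. In TBHQ alone 5 were higher and 12 lower, beside 14.2% and 14.8%, with a median of -0.09; the 5 became 2 or 3 in 9 alternatives, among them 5 with 1 library left out.

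Of 6 other IL-1 family ligands 2 were tested, and both were called higher in LPS and in PIC, beside 24.0% and 28.6% of all genes. Both were at the floor in control and TBHQ and passed the filter through the stimulated conditions, so that these calls follow largely from the filter. Il36g, which encodes IL-36γ, had 0 counts in control, and its mean was 0.651 ± 0.11 FPKM in LPS, 1.63 ± 0.254 in PIC, 3.66 ± 0.84 in LPS+TBHQ and 5.999 ± 0.689 in PIC+TBHQ. Against a floor of 3 counts per library it was at least 5.76-fold higher than control in LPS and at least 14.4-fold higher in PIC. In contrast to Il1a and Il1b it rose further with TBHQ, by 2.48 ± 0.22 on the log2 scale in LPS, with an edgeR adjusted p of 4.04e-10, and by 1.88 ± 0.16 in PIC, with an edgeR adjusted p of 1.43e-09, with no overlap of the libraries. The other, Il36a, which encodes IL-36α, had a mean of 12.9 counts and was lower with TBHQ in PIC, at -0.96 ± 0.20 with an edgeR adjusted p of 0.0232. For Il36a, PIC+TBHQ against PIC, the adjusted p ran from 0.00147 to 0.116 over the alternatives, and 6 of them lost the call, among them DESeq2 (0.0749). In LPS it was at -0.82 ± 0.38 with an edgeR adjusted p of 0.213.

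Of 8 receptors of the family, 3 were tested. None was called higher in LPS or PIC, beside 24.0% and 28.6% of all genes. Called lower were 1 in LPS and 2 in PIC, beside 24.1% and 30.1%. Il1rl1, the IL-33 receptor, was lower by a log2 fold change of -0.32 ± 0.12 in LPS (edgeR adjusted p = 0.00207) and -0.23 ± 0.09 in PIC (edgeR adjusted p = 0.018). Il18rap, a chain of the IL-18 receptor, was lower by -0.47 ± 0.12 in PIC (edgeR adjusted p = 0.0134). Both PIC calls were lost in some alternatives, among them without PIC replicate 3 for Il1rl1 (adjusted p = 0.194) and without PIC replicate 2 for Il18rap (0.0741). Il1r2, Il1rl2 and Il18r1 were at the floor in all 6 conditions, and Il1r1, the signalling receptor of IL-1, had a mean of at most 0.0173 FPKM in any condition.

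All 12 genes of IL-1 receptor signalling were tested. In LPS 5 were higher and 1 lower, beside 24.0% and 24.1% of all genes. In PIC 8 were higher and 2 lower, beside 28.6% and 30.1%. Irak3, an inhibitory kinase of the pathway, rose by 1.68 ± 0.0735 on the log2 scale in LPS and by 2.21 ± 0.0735 in PIC, and Irak2 by 0.97 ± 0.0315 and 1.45 ± 0.0291. Peli1, a ubiquitin ligase, rose by 0.26 ± 0.0583 in LPS and by 1.94 ± 0.0484 in PIC. Tab1 was lower, at log2 fold changes of -0.40 ± 0.0885 in LPS and -0.74 ± 0.1 in PIC. Irak1 was lower in PIC by -0.13 ± 0.0722, a call lost in most alternatives. With TBHQ 0 were higher and 5 lower in LPS, beside 11.7% and 12.2% of all genes. In PIC with TBHQ 1 was higher and 8 lower, beside 15.8% and 15.5%. Irak2 fell by 0.39 ± 0.0618 in LPS and by 0.43 ± 0.0634 in PIC. Traf6 fell by 0.23 ± 0.0486 in LPS and by 0.31 ± 0.0946 in PIC. Peli1 fell by 0.15 ± 0.0378 in LPS and by 0.59 ± 0.0303 in PIC. Tab1 rose by 0.31 ± 0.0939 in PIC, a call lost without PIC replicate 1 or PIC+TBHQ replicate 1.

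Of 11 other sensors 6 were tested, and Nlrp1a, Nlrp6 and Nlrp12 were at the floor in all conditions. In LPS 1 sensor was called higher and 1 lower, beside 24.0% and 24.1% of all genes. In PIC 2 were higher and 1 lower, beside 28.6% and 30.1%. Nlrc4, a sensor of the flagellin pathway, rose by 0.80 ± 0.17 on the log2 scale in PIC. Naip2 rose by 0.17 ± 0.0645 in LPS, which was lost without control replicate 1 or 3, without LPS replicate 3, in limma and with total counts, and by 0.34 ± 0.0485 in PIC, lost with total counts. Nlrp1b fell by 0.34 ± 0.1 in LPS and by 0.48 ± 0.1 in PIC. With TBHQ it was higher by 0.32 ± 0.0754 in LPS, a call lost without LPS replicate 2 or 3 or LPS+TBHQ replicate 1, and by 0.26 ± 0.0543 in PIC, a call with an edgeR adjusted p of 0.0402 that was lost in most alternatives. None of the 6 was called lower with TBHQ in LPS or PIC by edgeR, beside 12.2% and 15.5% of all genes.

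Among 11 inflammasome partners and triggers, all tested, 6 were higher and 3 lower in LPS, beside 24.0% and 24.1% of all genes. In PIC 5 were higher and 3 lower, beside 28.6% and 30.1%. Gbp2 and Gbp5, guanylate-binding proteins that act on bacterial membranes and LPS, and Zbp1, a sensor of nucleic acids, were the highest. Gbp2 rose by 3.14 ± 0.0591 in LPS and 3.81 ± 0.0127 in PIC. Zbp1 rose by 2.57 ± 0.097 in LPS and 2.97 ± 0.0942 in PIC, and Gbp5 by 1.52 ± 0.17 and 3.35 ± 0.107. With TBHQ, Gbp2 fell by 2.80 ± 0.15 in LPS and by 1.51 ± 0.0757 in PIC, and Gbp5 by 3.13 ± 0.19 and 1.94 ± 0.12. Txnip, which binds thioredoxin, was lower in LPS (-0.84 ± 0.0578) and PIC (-0.66 ± 0.0266). So was P2rx7, an ATP-gated channel, in LPS (-0.35 ± 0.11) and PIC (-0.52 ± 0.12). Nek7, a partner of NLRP3, was lower in LPS (-0.35 ± 0.0563) and PIC (-0.53 ± 0.036) as well. With TBHQ 2 were higher and 4 lower in LPS, beside 11.7% and 12.2% of all genes. In PIC with TBHQ 2 were higher and 5 lower, beside 15.8% and 15.5%. The channel gene Panx1 rose by 0.52 ± 0.14 in LPS with TBHQ and by 0.65 ± 0.0423 in PIC, Txnip by 0.14 ± 0.0652 in LPS, and P2rx7 by 0.26 ± 0.0433 in PIC, of which the last was lost in most alternatives and that of Txnip without LPS replicate 3 or LPS+TBHQ replicate 2.

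Of 15 other gasdermins, caspases and effectors of pyroptosis, 10 were tested, with 4 higher and 5 lower both in LPS and in PIC. The shares of all genes were 24.0% and 24.1% in LPS and 28.6% and 30.1% in PIC. Ninj1, which ruptures the plasma membrane in dying cells, rose by 0.67 ± 0.0609 on the log2 scale in LPS and 1.03 ± 0.0336 in PIC. Unlike Gsdmd, it rose again with TBHQ, by 0.34 ± 0.062 in LPS, with an edgeR adjusted p of 5.56e-08, and by 0.30 ± 0.0429 in PIC, with an edgeR adjusted p of 3.86e-07. Casp8 rose by 0.49 ± 0.0431 in LPS and 0.61 ± 0.0526 in PIC and fell with TBHQ by 0.31 ± 0.0948 and 0.36 ± 0.0503. Hmgb1, a nuclear protein released from dying cells, fell by 0.86 ± 0.0791 in LPS and 0.80 ± 0.0714 in PIC. With TBHQ 1 gene was higher and 1 lower in LPS, beside 11.7% and 12.2% of all genes. In PIC with TBHQ 2 were higher and 2 lower, beside 15.8% and 15.5%, with Ripk3 higher by 0.23 ± 0.0445.

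Reference genes gave no common scale for these values. Of 7, 3 were called higher and 2 lower both in LPS and in PIC. The shares of all genes were 24.0% and 24.1% in LPS and 28.6% and 30.1% in PIC. Actb rose by 0.50 ± 0.0504 and 0.85 ± 0.0614 on the log2 scale. The mean of Gapdh went from 8.64 FPKM in control to 45.6 FPKM in PIC, where its libraries ran from 15.8 to 104 FPKM. From control to PIC Hprt went from 118 to 115.5 FPKM and Tbp from 2.37 to 2.30 FPKM. The changes of Casp1, Il18, Casp4 and Gsdmd in PIC, from 0.57 to 0.92, were of the size of that of Actb, whereas those of Il1rn and Nlrp3 were larger. This comparison depends on the reference gene taken.

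The genes with the most similar course over the 18 libraries were sought among 10451 genes with a mean of at least 50 counts, by Pearson correlation of log2 CPM. The libraries fall into 6 conditions, so these values describe shared steps between conditions. Closest to Il1b were Atf4 (r = 0.990), Glrx (0.989) and Zfp811 (0.989). Closest to Il1rn were Sesn2 (0.996), Slc2a1 (0.995) and Mlkl (0.994). For Nlrp3 they were Ptprj (0.993), Ugcg (0.988) and Chd7 (0.988), and for Casp4 they were Ms4a6d (0.990), Ifi202b (0.987) and Rgs16 (0.984). No member was among the closest genes of these 4, and the other members were not searched.

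Il1a and Il1b both lie on the minus strand of chromosome 2, at chr2:129141530-129151892 and chr2:129206490-129213059 in the count table, with 54597 bases between them, and Il1rn is at chr2:24226865-24241506. Casp1 is at chr9:5298508-5307290 and Casp4 at chr9:5308828-5336783. The labels name both GRCm38 and mm39, and 9 of the 10 members have another start in the table than in the GENCODE annotation of GRCm38. Antisense genes overlap Il1a (Gm14023, 108 counts), Il1b (Il1bos, 40 counts) and Il18 (Bco2, 338 counts, and Tex12, 13 counts). No member shared a 50-base stretch with another gene except Il1rn, with 7 of 5571.

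Promoters of the 4 members with a match to a searched motif are shown. RefSeq promoters on GRCm38.p6, 250 bases before the start, were matched for 9 of the 10 members, with Gsdmd the missing entry. Both strands were searched for 4 motifs, which may overlap: AP-1 (TGANTCA), the core of the antioxidant response element (TGA and GC separated by 4 bases), κB (GGGA and CC separated by 4 bases) and the core of the interferon-stimulated response element (GAAA, 2 bases, GAAA). They occur in 6.75%, 35.2%, 17.6% and 2.98% of 32851 such promoters. AP-1 matched in Il1a and Il1rn, the antioxidant response element core in Casp4 and Nlrp3, κB in Casp4, Il1rn and Nlrp3, and the last in none of the 9. The window of Il1b held none of the 4, which says only that these letters are not in it. The sequences run 5′ to 3′ along the gene from its most upstream start, with matches in capitals: TGACTCA in Il1a and TGAGTCA in Il1rn are AP-1, GGGAGTGGCC, GGGAACCCCC and GGGATTTCCC are κB, and GCTTGTTCA and GCTCTTTCA are the antioxidant core read from the other strand. A match is a description and not a bound site.
Il1a, chr2:129309973-129310222, minus strand: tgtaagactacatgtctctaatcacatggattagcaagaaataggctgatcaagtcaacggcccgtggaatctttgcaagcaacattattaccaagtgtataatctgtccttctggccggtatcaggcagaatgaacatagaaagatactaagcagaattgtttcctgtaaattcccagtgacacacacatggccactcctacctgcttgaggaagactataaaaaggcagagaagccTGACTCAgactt
Il1rn, chr2:24336610-24336859, plus strand: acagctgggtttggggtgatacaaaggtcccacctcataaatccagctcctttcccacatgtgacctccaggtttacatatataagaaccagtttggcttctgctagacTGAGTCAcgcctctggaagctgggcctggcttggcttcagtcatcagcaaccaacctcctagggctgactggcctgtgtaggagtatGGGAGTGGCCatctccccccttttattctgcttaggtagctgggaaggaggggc
Nlrp3, chr11:59541319-59541568, plus strand: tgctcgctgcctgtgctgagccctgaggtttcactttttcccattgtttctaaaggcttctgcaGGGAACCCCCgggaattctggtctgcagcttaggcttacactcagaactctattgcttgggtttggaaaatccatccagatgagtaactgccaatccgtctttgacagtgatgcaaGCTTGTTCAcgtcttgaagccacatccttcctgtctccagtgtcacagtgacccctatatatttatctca
Casp4, chr9:5308599-5308848, plus strand: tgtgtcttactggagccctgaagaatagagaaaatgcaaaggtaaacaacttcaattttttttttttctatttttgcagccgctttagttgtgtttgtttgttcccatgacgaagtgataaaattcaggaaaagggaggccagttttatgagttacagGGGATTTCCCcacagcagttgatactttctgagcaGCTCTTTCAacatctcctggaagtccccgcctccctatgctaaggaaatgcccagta

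These are transcript levels in 1 cell line, and neither cleavage of the cytokines nor pore formation was measured here. Each condition has 3 libraries, so a small change can be missed, and Il18bp and Pycard are limited by their counts. With the collection time of control cells not stated outright, a comparison with control may not separate treatment from time in culture, least of all for TBHQ alone, and each comparison of cells with and without TBHQ may include its solvent. In the stimulated pairs, cells with TBHQ also spent 4 h longer in treatment than those without it. Whether TBHQ acted on the cells or on the stimulus was not tested.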

How the data were processed

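Counts of reads per gene (whole numbers) and FPKM values were made and deposited by the authors. According to the submitters' processing notes, HISAT2 2.0.5 was used for alignment, StringTie 1.3.3b for assembly and featureCounts 1.5.0-p3 for counting. The deposited counts are not normalized. The FPKM values of the authors scale each count to gene length and total counts, times a further factor of each library, from 0.9428 in control replicate 3 to 1.116 in PIC replicate 2, whose origin was not examined. They were used for levels and for ratios between genes, and the factor cancels in ratios within a library. Libraries were made from poly(A) RNA and are called strand-specific in the methods of the paper, while the labels speak of both directional and non-directional ones.

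Counts of the 18 libraries were fitted in 1 model with edgeR 4.0.16 in R 4.3.3 (filterByExpr, TMM factors, glmQLFit and glmQLFTest, 1 coefficient per condition), with Benjamini-Hochberg adjustment over 13691 genes. SE is the standard error of the difference of group means of log2 CPM with a prior count of 2. It reflects only the scatter between the 3 libraries of each condition, so a small SE can lie below counting error. The fitting steps were tested on simulated data. Alternatives used DESeq2 1.42.0, limma 3.58.1 on log2(FPKM + 1) and log2(FPKM + 0.1), other size factors and filters, the replicate block and leaving out each library. Wider lists, Il36a and Actb were tried under the same alternatives after seeing the data. Python 3.11.15 with pandas 2.3.3, numpy 2.4.6, scipy 1.17.1 and matplotlib 3.10.9 served for descriptions and plots. Ratios carry 95% exact binomial counting intervals.

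All 10 members were named in the comparisons, Pycard by its counts, and Il1a and Il1b against control by count ratios. Of each wider list the text names up to the 2 highest and 2 lowest log2 fold changes among called genes with a mean of at least 50 counts over the 18 libraries, in LPS and PIC against control and with TBHQ in LPS and PIC, and the receptors and sensors at the floor in all conditions. Il1r1, Il36a and the reference genes Actb, Gapdh, Hprt and Tbp were named after their values were seen. Some wider genes are also given in the stimulus for which the rule does not name them. Members and lists were chosen with earlier results of these data known. Irgb10 was matched as Gm12250 and Tmem173 as Sting1. The strand setting of the counting is not given in the sources used here, and the labels name both GRCm38 and mm39. The counting intervals cover counting error only. Some genes that these rules or the marker lists would name are not reported here.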

Additional observations from a re-analysis of the deposited data

Results flagged for a closer look

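The change with TBHQ differed between PIC and LPS, by edgeR's test of the interaction, for 1 of 9 tested members and 6 of 44 further tested genes of the pathway, beside 0.833% of all genes higher and 1.01% lower. Values are the log2 fold change of PIC+TBHQ against PIC minus that of LPS+TBHQ against LPS. For Nlrp3 it was -0.41 ± 0.0391 (SE), with an edgeR adjusted p of 1.22e-05, and TBHQ went with a lower level in both stimuli. For the signalling genes Peli1 and Irak3 it was -0.44 ± 0.0484 and -0.39 ± 0.0849, with edgeR adjusted p-values of 3.4e-05 and 0.00559. Peli1 was lower with TBHQ in both stimuli, whereas Irak3 was lower in PIC (-0.26) and not called in LPS, at 0.13 with an edgeR adjusted p of 0.13. For Txnip it was -0.27 ± 0.0698, with an edgeR adjusted p of 0.01, which was 0.0607 without LPS+TBHQ replicate 2, and it was higher with TBHQ in LPS (0.14) and lower in PIC (-0.13). For Zbp1 it was 1.05 ± 0.0626, with an edgeR adjusted p of 3.9e-11. For Gbp2 it was 1.29 ± 0.171, with an edgeR adjusted p of 1.94e-06, which was 0.0851 with limma on log2(FPKM + 0.1). For Gbp5 it was 1.19 ± 0.221, with an edgeR adjusted p of 0.0126, which was 0.052 without LPS replicate 3, 0.0854 without LPS+TBHQ replicate 2 and 0.394 with limma on log2(FPKM + 0.1), and its sign turned with limma on log2(FPKM + 1), at -0.41 with an adjusted p of 0.0723. For Gbp5, difference of the TBHQ change between PIC and LPS, the adjusted p over all alternatives ran from 0.00703 to 0.394. Zbp1, Gbp2 and Gbp5 were lower with TBHQ in both stimuli, by edgeR more so in LPS.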

How the results depend on the processing

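Of 1256 log2 fold changes of members under the alternatives, 1202 kept their direction and their side of the threshold, 26 lost the call, 9 gained it and 19 turned sign. Those that turned had an adjusted p of at least 0.0867 and, under the alternative, an absolute log2 fold change of at most 0.415, but up to 1.75 before it, for Il1b in TBHQ against control. Of 300 member counts 278 stayed within 1.5 times. Of 1022 values of named wider genes 947 kept direction and call, 74 lost the call and 1 turned, the interaction of Gbp5 with limma on log2(FPKM + 1), at -0.41. Of 282 counts over the wider lists 15 moved: in TBHQ against control the 5 higher became 2 or 3 in 9 alternatives, with total counts the lower ones became 20 in PIC and 19 in PIC+TBHQ against control and 9 in PIC against LPS, in place of 13, 11 and 3, with TBHQ the higher ones became 3 in LPS and 4 in PIC, in place of 5 and 7, and in the interaction 1 was higher in place of 3 with limma on log2(FPKM + 0.1). The alternatives for the wider genes and lists were chosen after seeing the data. Except where stated, the cause of a change was not tested.

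With an adjusted p below 0.01 and an absolute log2 fold change above 2, fewer genes can pass. Members called were then 0 higher and 0 lower in TBHQ against control, 3 higher in LPS, 4 higher in PIC, 2 higher and 0 lower in LPS+TBHQ and 4 higher in PIC+TBHQ against control. They were 2 lower in LPS+TBHQ against LPS, 2 lower in PIC+TBHQ against PIC, 0 higher in PIC against LPS and 0 lower in the interaction. Of all genes, 11 were higher and 15 lower in TBHQ, 184 and 40 in LPS, 370 and 119 in PIC, 115 and 17 in LPS+TBHQ and 241 and 54 in PIC+TBHQ against control, in place of 1943 and 2030, 3283 and 3305, 3917 and 4121, 2896 and 3087, and 3615 and 3563. They were 5 and 48 in LPS+TBHQ against LPS, 8 and 33 in PIC+TBHQ against PIC, 40 and 2 in PIC against LPS and 0 and 0 in the interaction, in place of 1600 and 1673, 2167 and 2118, 2035 and 1752, and 114 and 138.

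Scaled to total counts, 2 members were lower in LPS+TBHQ against control, 5 higher in PIC+TBHQ against control and 1 lower in PIC against LPS. Casp4 in LPS+TBHQ against control turned to -0.059, Il18 in PIC+TBHQ against control to -0.083, Casp1 in PIC+TBHQ against PIC to 0.022 and Il18bp in PIC against LPS to -0.036. Of all genes, 2380 were then higher and 6635 lower in PIC against control, 2367 and 5510 in PIC+TBHQ against control, 986 and 4373 in PIC against LPS, 235 and 74 in the interaction, and 3401 were higher in PIC+TBHQ against PIC. DESeq2 and limma on both scales called 0 members lower in LPS+TBHQ against control. In the interaction 1 member was called higher by DESeq2 and 1 without the filter, and Il1a was at -0.017 with limma on log2(FPKM + 1). All genes called in it were 237 lower without the filter, 253 lower in DESeq2, 60 higher with limma on log2(FPKM + 1), and 53 higher and 76 lower with limma on log2(FPKM + 0.1).

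Leaving out 1 library at a time, members called lower in LPS+TBHQ against control ranged from 0 to 1 and those called higher in the interaction from 0 to 1, and all genes in it from 72 to 115 higher and from 86 to 239 lower. In TBHQ against control Il1b ranged from -0.42 to 2.34 and Il1rn from -0.016 to 0.035. Casp4 ranged from -0.026 to 0.047 in LPS+TBHQ and Il18 from -0.11 to 0.23 in PIC+TBHQ against control. In PIC against LPS, Il18bp ranged from -0.20 to 0.24 and Casp1 from -0.066 to 0.014. In the interaction Il18bp ranged from -0.17 to 0.43 and Casp4 from -0.0096 to 0.19.

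The replicate numbers carry no stated pairing. Deviations from group means correlated at 0.0245 on average between libraries of the same number and at -0.0123 between others, and 11 of 18 libraries were closest to their own number. With the replicate block, 81 of 81 log2 fold changes and 18 of 18 counts of members kept their call. Pycard, and Il1a and Il1b in control, had counts of 10 or fewer per library.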
